A study of Mus musculus with 3 samples.

Results

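The zinc genes described here were the metallothioneins *Mt1* and *Mt2*, the zinc importers *Slc39a4* (ZIP4) and *Slc39a5* (ZIP5), and the zinc exporters *Slc30a1* (ZnT1) and *Slc30a2* (ZnT2). They were chosen by symbol, 6 of the 31053 genes in the gene list of the libraries. The study sequenced RNA of single cells from the small intestine of C57BL/6N wildtype (WT) male mice aged 12 weeks. Cells of 3 mice were pooled before sequencing, and each segment (duodenum, jejunum, ileum) gave 1 library, so that a segment cannot be told apart from its library, nor 1 mouse from another. Epithelial cells and intraepithelial immune cells were detached with EDTA and DTT, sorted as living single cells by propidium iodide and counted by 10x Genomics 3′ chemistry. Per the study's methods mice were kept on normal chow, no other genotype and no treatment was part of these samples, and the ending CD of the sample names is not explained in the sources used here.

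Zinc from food enters enterocytes, the absorptive cells of the villus, across the brush border through ZIP4. ZIP5 lies in the basolateral membrane and takes up zinc from the blood side, ZnT1 exports zinc from the cytosol across the plasma membrane, and ZnT2 moves zinc into vesicles. Metallothioneins are small cysteine-rich proteins that bind zinc and copper, and their genes and *Slc30a1* are switched on by zinc through the transcription factor MTF1, which binds metal response elements in their promoters. Enterocytes arise from crypt stem cells and mature as they move from the villus bottom to the tip.

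A level means the UMIs (unique molecular identifiers, 1 per counted transcript) that a gene took of every 10000 UMIs summed over a class. Its 95% intervals are exact Poisson intervals and cover counting error only. Of the barcodes deposited, 4255 (duodenum), 4360 (jejunum) and 8071 (ileum) passed the filters. These cells held a median of 12424, 11737 and 5536 UMIs, and a median of 27.1%, 27.2% and 11.1% of their UMIs came from mitochondrial genes. Between 4 and 12 kept barcodes were shared by any 2 libraries. In all, 23270 UMIs of *Mt1*, 906 of *Mt2*, 37028 of *Slc39a4*, 14260 of *Slc39a5*, 4699 of *Slc30a1* and 7755 of *Slc30a2* were counted. Classes of cells are groups whose clusters resembled a cell type by its marker genes. Clustering was done without the zinc genes. They comprised 10630 enterocytes, 1041 early enterocytes with *Reg3b* and *Reg3g* among their leading genes, 203 ISC/proliferating cells (intestinal stem cells and dividing cells), 747 goblet cells, 301 tuft cells, 170 enteroendocrine cells (EECs), 24 Paneth cells, 1225 T cells, 572 B cells, 87 IgA B cells and 26 macrophages/monocytes, while 1660 cells stayed unnamed.

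*Mt2* (ENSMUSG00000031762) and *Mt1* (ENSMUSG00000031765) lie next to each other on the plus strand of mouse chromosome 8 (GRCm38, GENCODE M21), *Mt2* from 94172664 to 94173568 and *Mt1* from 94179082 to 94180327. The gap between them is 5513 bases. *Slc39a4* (ENSMUSG00000063354) lies on the minus strand of chromosome 15 from 76612383 to 76617384, *Slc39a5* (ENSMUSG00000039878) on the minus strand of chromosome 10 from 128395931 to 128401229, where it overlaps *Ankrd52* on the other strand, *Slc30a1* (ENSMUSG00000037434) on the plus strand of chromosome 1 from 191906767 to 191913247, and *Slc30a2* (ENSMUSG00000028836) on the plus strand of chromosome 4 from 134343181 to 134354484. Antisense genes overlap *Mt2* and *Slc30a1*. The promoters of the known MTF1 targets are shown because *Mt1* and *Mt2* were found in the same cells, as described further on. Each line gives the 250 bases before the start annotated by RefSeq (GRCm38.p6), read 5′ to 3′ on the plus strand, and capitals mark the core of the metal response element, searched as TGCACNC and TGCGCNC on both strands.
Mt1, chr8:94178839-94179088: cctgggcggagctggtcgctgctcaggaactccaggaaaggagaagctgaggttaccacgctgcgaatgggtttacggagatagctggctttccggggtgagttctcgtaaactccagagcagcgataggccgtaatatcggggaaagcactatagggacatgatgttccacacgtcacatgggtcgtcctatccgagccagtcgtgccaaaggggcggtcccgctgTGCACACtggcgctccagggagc
Mt2, chr8:94172368-94172617: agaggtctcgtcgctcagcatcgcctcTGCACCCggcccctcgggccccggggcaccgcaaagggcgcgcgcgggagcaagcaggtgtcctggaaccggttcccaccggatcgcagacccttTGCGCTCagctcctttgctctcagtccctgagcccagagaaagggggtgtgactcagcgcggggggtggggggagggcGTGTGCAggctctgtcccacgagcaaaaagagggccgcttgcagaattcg
Slc30a1, chr1:191906531-191906780: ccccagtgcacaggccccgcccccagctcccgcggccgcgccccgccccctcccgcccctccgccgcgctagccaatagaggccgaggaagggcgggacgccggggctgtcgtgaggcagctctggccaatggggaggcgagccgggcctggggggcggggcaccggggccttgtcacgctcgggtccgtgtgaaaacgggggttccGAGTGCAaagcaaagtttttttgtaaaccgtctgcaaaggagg

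The starts annotated by RefSeq and GENCODE are not the same bases. In the window from 250 bases before to 50 bases after the start, *Mt2* held 4 such cores, *Mt1* held 3, and *Slc30a1* and *Slc30a2* held 2 each, none of them overlapping. The cores that lie after the start are contained in the following stretches.
Mt1, chr8:94179089-94179118: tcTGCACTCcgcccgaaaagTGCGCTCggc
Mt2, chr8:94172619-94172648: gtcGTGCGCAggcccaggggcgtgtgctgg
Slc30a1, chr1:191906801-191906830: cctccgggccGAGCGCAgtcgccgcggacg
The windows of the *Slc39a5* starts held 1 core and 0 cores. Of 32851 windows of this length across all genes, 25.7% held at least 1 core, 7.11% at least 2 and 1.97% at least 3. The match is a description of letters and was not tested as a binding site.

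*Slc39a4*, the importer of the brush border, had its highest level in enterocytes, with 2.77 (duodenum), 1.95 (jejunum) and 3.67 (ileum) (mean 2.80 ± 0.863, SD, n = 3 libraries). Each of these values was above that of every other class in any library. Early enterocytes followed with 1.21, 1.04 and 0.982 in the same order, and ISC/proliferating cells held 0.353, 0.271 and 0.373. The ranges of early enterocytes and goblet cells (0.829 ± 0.174) overlapped, and the ranges of the remaining classes overlapped with their neighbours too.

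*Slc30a2*, the vesicular exporter, was likewise highest in enterocytes and nearly equal in the segments, with 0.557 (duodenum), 0.540 (jejunum) and 0.574 (ileum). No other class with at least 10 cells in every library reached these values. Early enterocytes held 0.239, 0.294 and 0.295, and ISC/proliferating cells 0.0770, 0.136 and 0.166. Among Paneth cells, which release antimicrobial peptides from zinc-rich granules at the crypt base, 21 UMIs gave a level of 0.475 (0.294 to 0.726), close to the enterocytes.

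*Slc39a5*, the basolateral importer, had another order. Early enterocytes held 1.40 (duodenum), 1.89 (jejunum) and 2.20 (ileum), ISC/proliferating cells 0.821, 0.854 and 1.01, and enterocytes 0.522, 0.704 and 0.710. The ranges of these 3 classes over the libraries did not overlap. Tuft cells (0.217 ± 0.012, SD, n = 3) lay below the enterocytes, and all other named classes had a lower mean.

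Among the classes with at least 10 cells in every library, *Mt1* was highest in early enterocytes (3.24, 2.09 and 4.08 in duodenum, jejunum and ileum) and ISC/proliferating cells (3.54, 2.44 and 2.68), and these classes overlapped. Enterocytes held 1.68, 0.470 and 0.631, so that each of them was below every library of the less mature classes. *Mt2* was scarce, with 0.0805, 0.110 and 0.284 in early enterocytes and 0.0284, 0.00548 and 0.0260 in enterocytes, and only 24 UMIs stand behind the jejunal value of enterocytes. *Mt1* and *Mt2* are close relatives, and how far reads that matched both were lost in counting was not tested.

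*Slc30a1*, the exporter of the plasma membrane, was found at 0.343, 0.250 and 0.555 in early enterocytes and at 0.322, 0.111 and 0.398 in enterocytes. These ranges overlapped. ISC/proliferating cells held 0.167, 0.122 and 0.0532, and goblet cells no more than 0.0693 in any library.

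**Figure D1:**
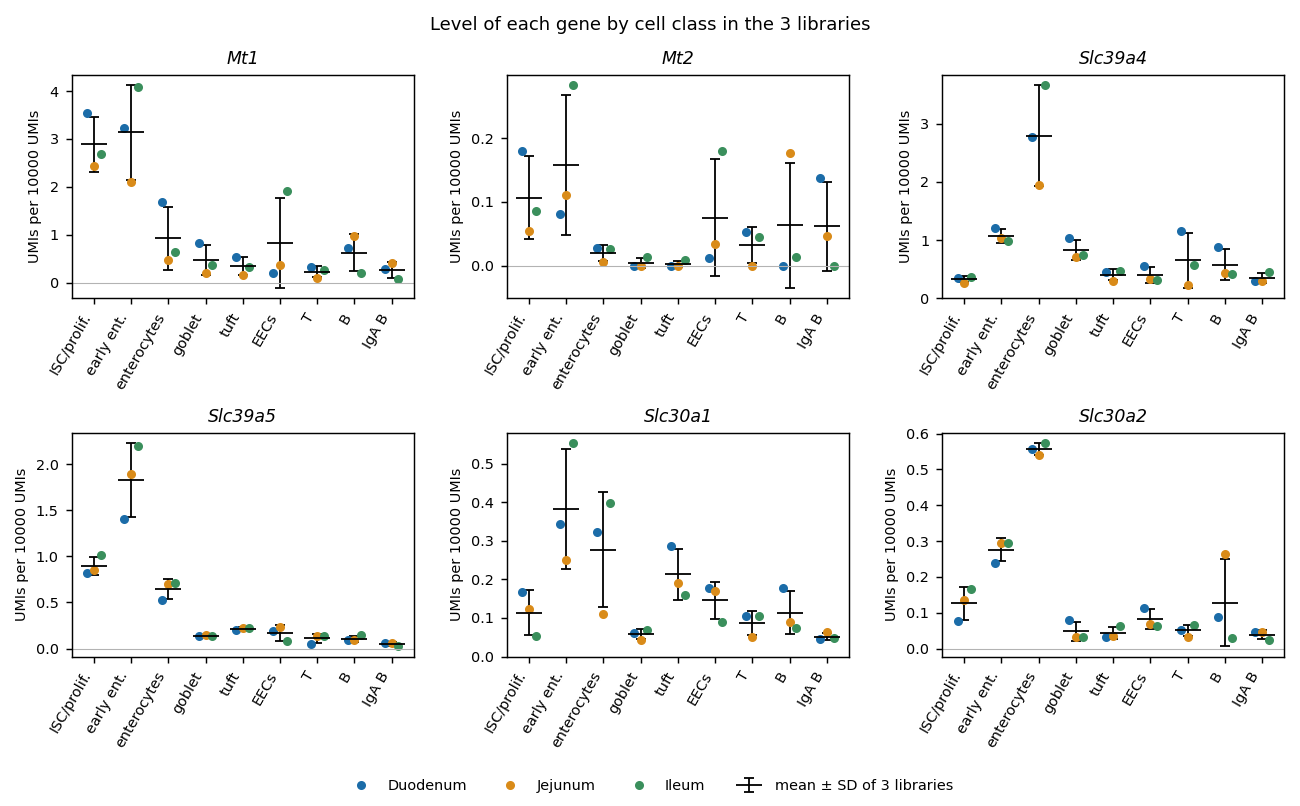
Level of each zinc gene (UMIs per 10000 UMIs, vertical axis) in 9 classes of cells. Coloured points are the 3 libraries and black bars the mean ± SD over them. *Slc39a4* and *Slc30a2* stand highest in enterocytes, *Slc39a5* in early enterocytes, and *Mt1* in early enterocytes and ISC/proliferating cells.

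Early enterocytes were then compared with enterocytes, using sums of UMIs by class and library, so that p-values measure the spread between the 3 segment libraries and not between mice. Of the 6 genes, 3 were higher in early enterocytes and 2 were lower, while *Slc30a1* did not pass the test. Across all 11398 genes tested, 45.0% passed in this comparison in either direction. *Mt2* was higher by a log2 fold change of 2.77 ± 0.59 (SE, adjusted p = 0.000461, edgeR), *Slc39a5* by 1.16 ± 0.21 (adjusted p = 8.2e-05) and *Mt1* by 1.55 ± 0.52 (adjusted p = 0.0174). The call of *Mt1* was lost in 5 of 18 alternatives, with an adjusted p between 0.0624 and 0.114 in edgeR and with a log2 fold change of 1.49 when the jejunum library was left out. *Slc39a4* was lower, by a log2 fold change of -1.67 ± 0.25 (adjusted p = 8.64e-06), and so was *Slc30a2*, by -1.35 ± 0.27 (adjusted p = 0.000229). The log2 fold change of *Slc30a1* was 0.22 ± 0.29 (adjusted p = 0.557). The median over the 6 genes was 0.69, compared to -0.12 over all genes tested.

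In ISC/proliferating cells the transporters of mature enterocytes were low. *Slc39a4* was lower than in enterocytes by a log2 fold change of -3.85 ± 0.29 (adjusted p = 5.66e-11, edgeR), *Slc30a2* by -2.94 ± 0.33 and *Slc30a1* by -2.0 ± 0.37, while *Mt2* was higher by 1.81 ± 0.65 (adjusted p = 0.0175). Thus 1 gene was higher and 3 were lower, and with 67.3% of all genes passing, 4 of 6 is a share near the background. In the jejunum, however, *Slc30a1* stood at 0.122 (9 UMIs) in ISC/proliferating cells and at 0.111 in enterocytes. The call of *Mt2* was lost without the duodenum (adjusted p = 0.11, edgeR), without the jejunum (adjusted p = 0.101) and with no library block (adjusted p = 0.0634). *Mt1* and *Slc39a5* depended on the scaling. With TMM, which scales libraries on the bulk of genes, *Mt1* differed by 0.99 ± 0.52 (adjusted p = 0.096) and *Slc39a5* by -0.30 ± 0.22 (adjusted p = 0.229), whereas with total UMIs alone *Mt1* was higher by 1.78 (adjusted p = 0.00589) and *Slc39a5* by 0.49 (adjusted p = 0.0387). Leaving TMM out moved the median of all genes by 0.78 in this comparison. *Mt1* passed in 7 of 18 alternatives, also without the duodenum (adjusted p = 0.0334, edgeR) and without the ileum (adjusted p = 0.0378).

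Goblet cells, which secrete mucus, were lower in all 4 transporters. The log2 fold changes were -1.77 ± 0.26 for *Slc39a4*, -2.25 ± 0.24 for *Slc39a5*, -2.17 ± 0.35 for *Slc30a1* and -3.56 ± 0.34 for *Slc30a2* (adjusted p at most 1.62e-05, edgeR), and *Mt1* (-0.98 ± 0.53) and *Mt2* (-1.62 ± 0.93) did not pass. This compares with 42.7% of all genes. In goblet cells, the *Slc39a4* level was 30.1% of that in enterocytes and the *Slc30a2* level 8.31%, next to 9.72% for a list of 13 enterocyte marker genes, which range from 7.92% to 12.6% over the libraries and of which none was at 0. The part of RNA from enterocytes in these values was not tested.

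In tuft cells, the chemosensory cells of the epithelium, 5 of the 6 genes were lower than in enterocytes, against 50.8% of all genes. *Slc30a2* differed most, by -4.13 ± 0.42 on the log2 scale (adjusted p = 1.25e-08, edgeR), and *Slc30a1* least, by -0.93 ± 0.36 (adjusted p = 0.0353). Tuft cells held *Slc30a1* at 0.287, 0.192 and 0.159 in duodenum, jejunum and ileum, against 0.322, 0.111 and 0.398 in enterocytes. In the jejunum its level was thus higher in tuft cells. The call of *Slc30a1* was lost without the duodenum (adjusted p = 0.0881, edgeR) or the ileum (-0.24, adjusted p = 0.633). It was lost in 4 more of 18 alternatives, which were DESeq2 (adjusted p = 0.18), and, in edgeR, RLE factors (adjusted p = 0.111), total UMIs alone (-0.34, adjusted p = 0.475) and no library block (adjusted p = 0.0591). *Mt1* lost its call with total UMIs alone (adjusted p = 0.0632, edgeR). Enterocyte markers stood at 17.3% of their level in enterocytes.

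EECs, the hormone-secreting cells, were lower in the 4 transporters, by -3.61 ± 0.31 for *Slc39a4*, -2.82 ± 0.29 for *Slc39a5*, -1.74 ± 0.41 for *Slc30a1* and -3.49 ± 0.40 for *Slc30a2* on the log2 scale (adjusted p at most 0.000703, edgeR), against 56.9% of all genes. *Slc30a1* no longer passed without the ileum (adjusted p = 0.0556, edgeR) or with total UMIs alone (adjusted p = 0.058). EECs held it at 0.177, 0.170 and 0.0901 in duodenum, jejunum and ileum, against 0.322, 0.111 and 0.398 in enterocytes. In the jejunum its level, from 5 UMIs, was thus higher in EECs. *Mt1* in EECs went apart between the libraries, with 0.190 (duodenum), 0.374 (jejunum) and 1.90 (ileum). Of the 148 *Mt1* UMIs in 93 ileal EECs, 5 cells held the larger part and a single cell held 28. Over the 3 libraries *Mt1* did not pass (-0.77 ± 0.58, adjusted p = 0.271, edgeR), with 0.052 for total UMIs alone and 0.19 without the duodenum, but without the ileum it was lower by -2.60 (adjusted p = 0.000901), and it also passed with no filter on low genes (adjusted p = 0.0334). *Mt2* passed without the duodenum (2.11, adjusted p = 0.0363, edgeR) and with total UMIs alone (adjusted p = 0.0481).

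In Paneth cells, whose sums held only 7, 6 and 11 cells, 3 of the 6 genes passed as lower, against 28.1% of 11543 genes. *Slc39a4* was lower by -4.49 ± 0.58 on the log2 scale (adjusted p = 5.13e-07, edgeR) and *Slc39a5* by -2.23 ± 0.57 (adjusted p = 0.00309), each with 4 UMIs in all. *Slc30a1* had 0 UMIs among 442246, which set it at least 3.9-fold lower than in enterocytes when 3 UMIs over the class are taken as the limit, and *Mt2* had 0 UMIs as well, with its level in enterocytes under that limit. *Slc30a2* was the exception among the transporters, with a log2 fold change of 0.36 ± 0.42 (adjusted p = 0.619, edgeR), which became -0.26 with total UMIs alone. It held 6, 3 and 12 UMIs in the 3 libraries, or 85.5% of its level in enterocytes, while the enterocyte markers stood at 2.40%. Without the ileum only *Slc39a4* passed, with *Slc39a5* at an adjusted p of 0.0782 in edgeR.

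T cells and B cells were each lower in 5 of the 6 genes, against 66.6% and 62.5% of all genes. For T cells the log2 fold changes ran from -2.33 ± 0.40 for *Slc30a1* to -4.03 ± 0.39 for *Slc30a2*, and for B cells from -1.93 ± 0.72 for *Mt1* to -4.18 ± 0.49 for *Slc30a2* (edgeR). *Mt2* did not pass in either class. B cells held *Mt1* at 0.712, 0.971 and 0.199 in duodenum, jejunum and ileum, against 1.68, 0.470 and 0.631 in enterocytes. In the jejunum the *Mt1* level, from 11 UMIs, was thus higher in B cells. In B cells, *Mt1* (adjusted p = 0.231, edgeR) and *Slc30a1* (adjusted p = 0.113) lost their calls without the ileum, which supplied 512 of the 572 cells. *Mt1* lost its call in 5 of 18 alternatives, the others being DESeq2 (adjusted p = 0.196), and, in edgeR, RLE factors (adjusted p = 0.0568), total UMIs alone (adjusted p = 0.212) and no library block (adjusted p = 0.055). The enterocyte markers stood at 13.3% of enterocytes in T cells and at 12.5% in B cells, beside 20.5% and 16.0% for *Slc39a4* and 11.2% and 7.95% for *Slc30a2*. Their part in the low levels of lymphocytes was not tested. Among 26 macrophages/monocytes, 89 *Mt1* UMIs gave a level of 3.05 (2.45 to 3.75), with 3.80 in the jejunum and 2.84 in the ileum, but sums were too small for a test.

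**Figure D2:**
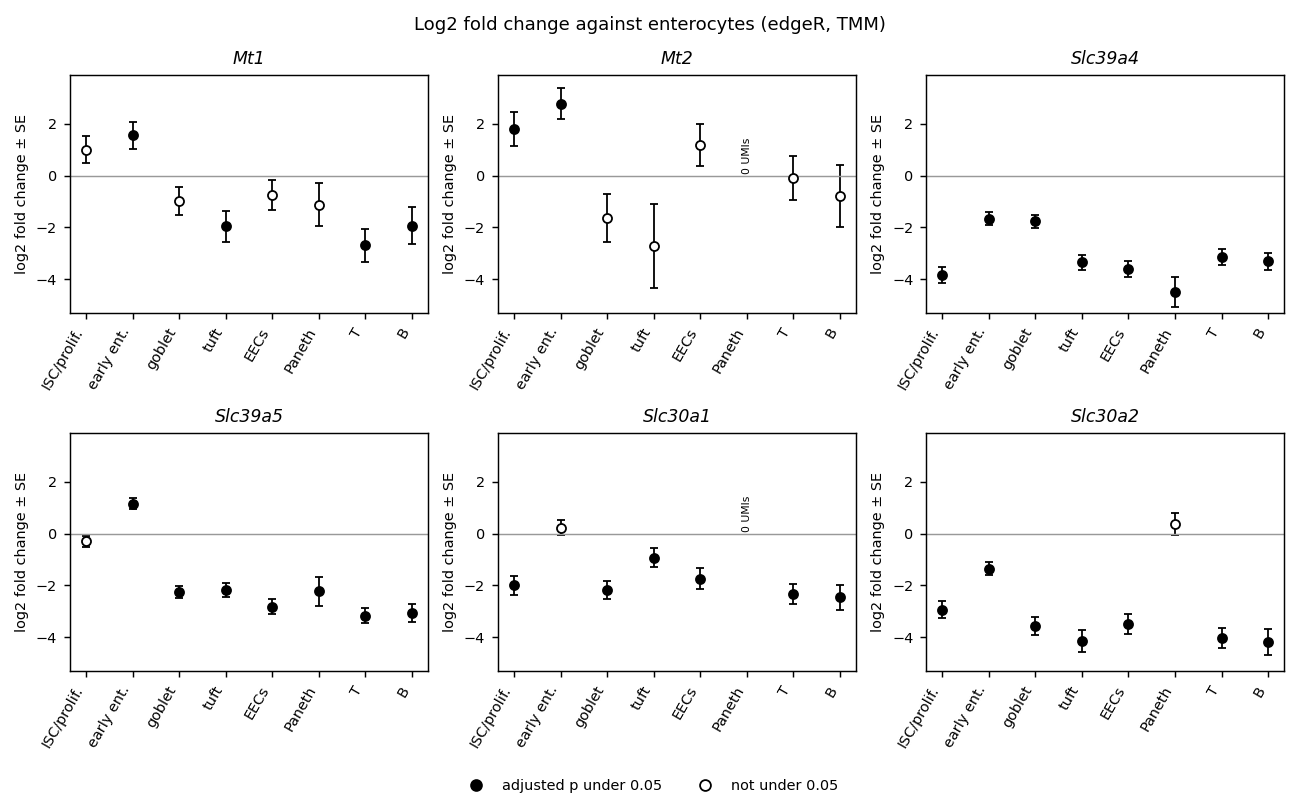
Log2 fold change of each zinc gene in 8 classes against enterocytes (vertical axis, ± SE, edgeR with TMM). Filled points passed at an adjusted p of 0.05. The 4 transporters lie below 0 in goblet cells, tuft cells, EECs, T cells and B cells, and *Mt2* and *Mt1* lie above 0 in early enterocytes.

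The share of cells in which a gene was found was also compared. At least 1 UMI of *Slc39a4* was found in 81.1% of enterocytes (exact binomial 95% interval 80.3 to 81.8%) and in 13.4% of T cells (11.5 to 15.4%). Cells of all libraries were pooled for these shares, and the intervals do not cover the spread between libraries. The median depths were 9884 and 4266 UMIs. Whether the UMIs in T cells came from RNA of enterocytes was not tested. When each cell was thinned to 800 UMIs, the depth all kept cells reached, the shares were 19.2% and 2.37%. *Mt1* was found in 30.3% of enterocytes, 85.0% of early enterocytes and 8.82% of T cells, and after thinning in 5.42%, 17.7% and 1.96%. By library, the share of enterocytes with *Mt1* before thinning was 51.6% (duodenum), 22.8% (jejunum) and 19.6% (ileum). For *Slc39a5* the thinned shares were 4.93% of enterocytes, 14.3% of early enterocytes and 0.653% of T cells, and for *Slc30a2* 4.54%, 2.79% and 0.653%.

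To follow the zinc genes along the villus, enterocytes of each library were ranked by a score of 7 genes of the villus tip minus 7 genes of the villus bottom, none of them a zinc gene, and divided into quintiles. A quintile is a range of the score and not a cell type. The check genes *Apoa4* (3.34 on the log2 scale), *Gpx2* (-3.46) and *Rpl3* (-1.34) differed between the highest and lowest quintile in the directions known for tip and bottom. *Slc39a5* fell at every step, from 0.822 to 0.182 (duodenum), from 1.27 to 0.228 (jejunum) and from 1.53 to 0.148 (ileum). *Slc30a1* fell at every step as well, from 0.428 to 0.130, from 0.207 to 0.0211 and from 0.622 to 0.215. No interval of the lowest quintile overlapped that of the highest quintile for either gene.

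*Mt1* fell from 2.48 to 0.922 (duodenum), from 0.977 to 0.190 (jejunum) and from 1.34 to 0.203 (ileum), with a step in the ileum from 1.28 in the second to 0.293 in the middle quintile. Between tip and bottom, *Slc39a5* changed by a log2 fold change of -2.12 ± 0.25 (adjusted p = 0.00134, edgeR), *Mt1* by -1.62 ± 0.24 (adjusted p = 0.00269) and *Slc30a1* by -1.52 ± 0.33 (adjusted p = 0.00968). Thus 3 of the 6 genes passed, all lower at the tip, which is a share near the 48.7% of 9745 genes that passed, and this fit had 2 residual degrees of freedom. *Mt1* (adjusted p = 0.128, edgeR) and *Slc30a1* (adjusted p = 0.219) lost their calls without the library block, where *Slc39a5* kept its call.

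*Slc39a4* and *Slc30a2* were lower at the tip than at the bottom in some libraries only. *Slc39a4* ran from 2.87 at the bottom over 2.98 in the middle quintile to 2.05 at the tip of the duodenum, from 2.07 over 2.13 to 1.44 in the jejunum, and from 2.87 over 3.91 to 3.73 in the ileum. Its level was higher at the tip than at the bottom in the ileum alone. *Slc30a2* was highest in the fourth quintile of the duodenum (0.672) and in the second quintile of the jejunum (0.627) and ileum (0.755), and its level at the tip was above that at the bottom in the duodenum alone. Neither gene passed between tip and bottom, with log2 fold changes of 0.33 ± 0.26 (adjusted p = 0.32, edgeR) and 0.14 ± 0.25 (adjusted p = 0.658), which became -0.23 and -0.42 with total UMIs alone. *Mt2* (-0.83 ± 0.47, adjusted p = 0.18) was too scarce for an order. Over the quintiles from bottom to tip, median UMIs per cell went from 15719 to 8559 in the duodenum and from 5069 to 7522 in the ileum, and mitochondrial UMIs in the ileum from 16.3% to 7.94%. The part of depth was not tested.

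**Figure D3:**
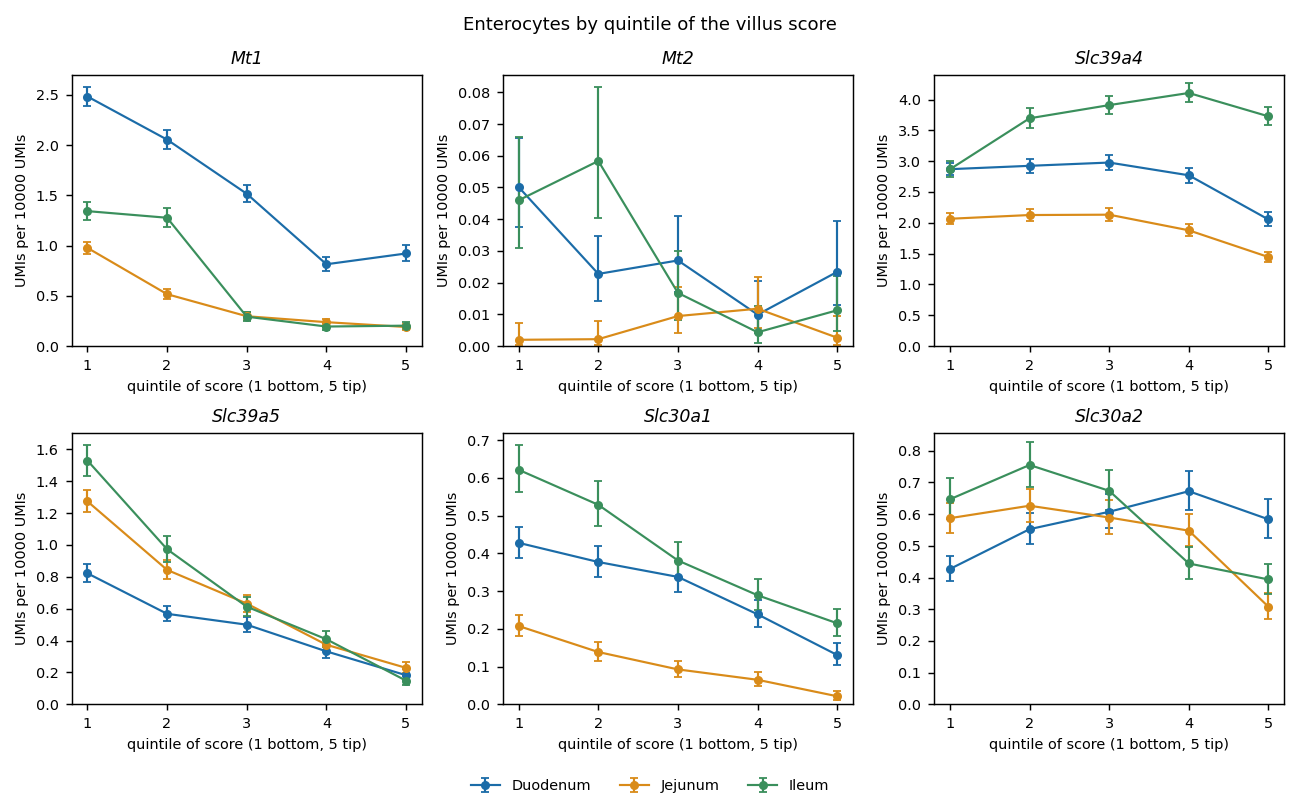
Level of each zinc gene (UMIs per 10000 UMIs, vertical axis) in quintiles of the villus score of enterocytes, from the bottom (1) to the tip (5), with exact Poisson 95% intervals. *Slc39a5*, *Slc30a1* and *Mt1* are lower at the tip in each of the 3 libraries, while *Slc39a4* is higher at the tip in the ileum alone.

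Next, the segments were compared. With 1 library per segment no test was possible, and a gene is called different here when its level differed at least 2-fold and its mean level was at least 0.1. In enterocytes *Mt1* was 3.57-fold and *Slc30a1* 2.91-fold lower in the jejunum than in the duodenum, as 2 of 5 zinc genes that reached that level, against 11.8% of all genes. Between jejunum and ileum only *Slc30a1* was called, 3.59-fold higher in the ileum, against 11.7% of all genes. Between duodenum and ileum only *Mt1* was called, 2.66-fold lower in the ileum, against 23.7% of all genes. *Slc39a4* was 1.89-fold higher in the ileum than in the jejunum, below the limit. *Slc30a2* differed by no more than 1.06-fold between any segments. The same 4 calls were made in 7 of 8 alternative settings, among them the mean over cells. With all deposited barcodes the call of *Mt1* between duodenum (1.53) and ileum (1.33) was lost, and *Mt1* was called between jejunum (0.650) and ileum instead, by 1.04 on the log2 scale. With at most 20% mitochondrial UMIs, *Mt1* of enterocytes was lowest in the ileum (0.588) and not in the jejunum (0.822), a difference below the limit.

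Enterocytes came from 8 clusters whose shares differed between segments, such that cluster 8 held 1.76% (duodenum), 5.15% (jejunum) and 17.5% (ileum) of the enterocytes. Within clusters, *Mt1* was lower in the jejunum than in the duodenum in 8 of 8 and lower in the ileum than in the duodenum in 7 of 8, and *Slc30a1* was lower in the jejunum than in the duodenum in 7 of 8 and higher in the ileum than in the jejunum in 8 of 8. Depth and mitochondrial share differed between the libraries as given above and cannot be told apart from the segment. In early enterocytes, no zinc gene was called between duodenum and jejunum (4.18% of all genes were), *Mt2* (2.57-fold) and *Slc30a1* (2.22-fold) were higher in the ileum than in the jejunum (9.18%), and *Mt2* was 3.53-fold higher in the ileum than in the duodenum (12.5%). *Mt1* was lower in the jejunum than in the duodenum, with intervals that did not overlap, in enterocytes, early enterocytes, ISC/proliferating cells, goblet cells (0.206 against 0.822), tuft cells (0.157 against 0.541) and unnamed cells. In EECs, T cells, B cells and IgA B cells the intervals overlapped. Between duodenum and ileum the direction of *Mt1* depended on the class. It was lower in the ileum, with intervals apart, in enterocytes, ISC/proliferating cells, goblet cells, B cells and unnamed cells. In early enterocytes (4.08 against 3.24) and EECs (1.90 against 0.190) it was higher in the ileum, with intervals apart. In tuft cells, T cells and IgA B cells these intervals overlapped. All these intervals cover counting error only and take no account of *Mt1* being unevenly spread over cells.

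**Figure D4:**
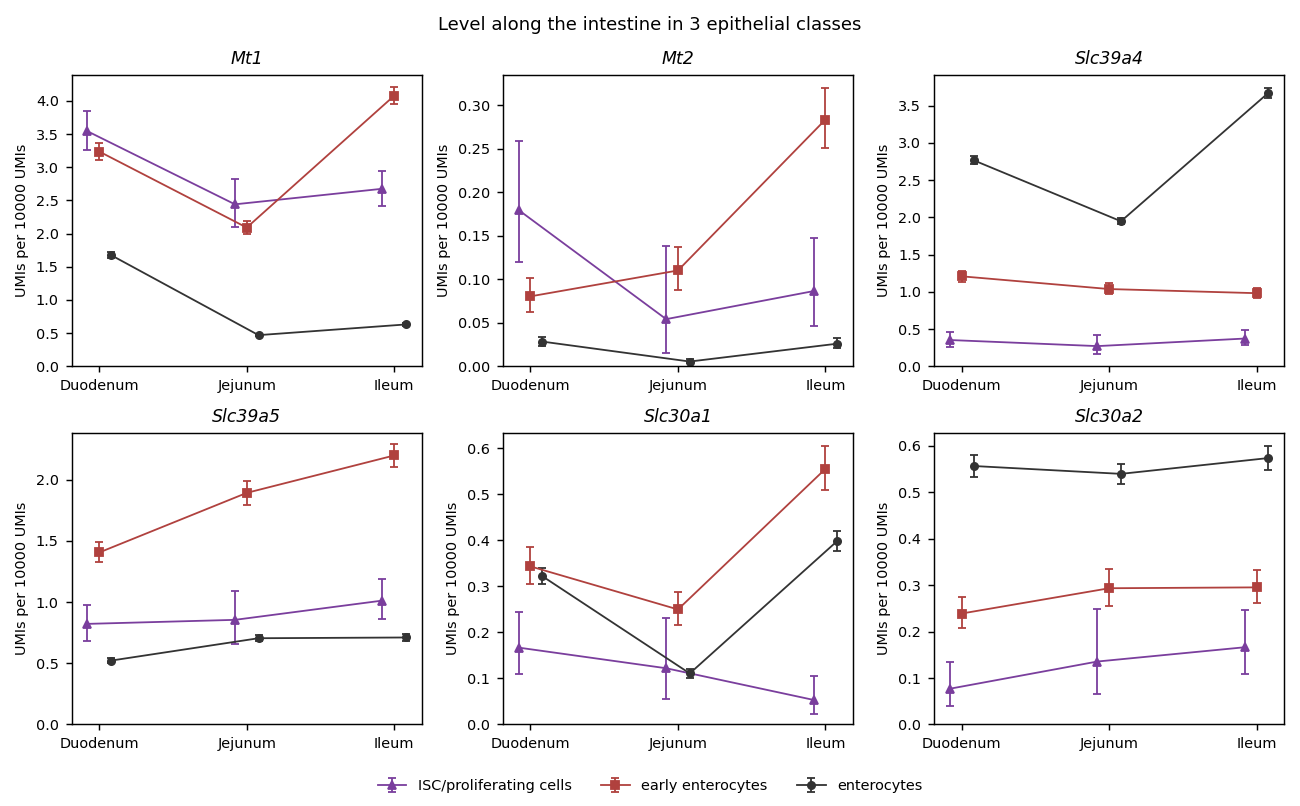
Level of each zinc gene (UMIs per 10000 UMIs, vertical axis) in the duodenum, jejunum and ileum libraries for ISC/proliferating cells, early enterocytes and enterocytes, with exact Poisson 95% intervals. *Mt1*, *Slc39a4* and *Slc30a1* of enterocytes are lowest in the jejunum, and *Slc30a2* is nearly level.

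Metallothionein RNA was unevenly spread over the cells of a class. In enterocytes, the 1% of cells with most *Mt1* UMIs held 17.9% of all *Mt1* UMIs (duodenum), 26.3% (jejunum) and 29.4% (ileum). For *Slc39a4* the top 1% of cells held 5.60%, 4.60% and 5.36%. Values between these were found for *Slc39a5* (9.12%, 8.08% and 11.5%), *Slc30a1* (9.52%, 17.1% and 14.5%) and *Slc30a2* (6.61%, 7.41% and 9.87%). The genes were not matched for their number of UMIs. Up to 87 *Mt1* UMIs were found in 1 enterocyte and up to 191 in 1 early enterocyte.

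The tenth of cells with the largest share of *Mt1* in each library was therefore set against the other cells, a comparison chosen after this spread was seen and described without a test. In early enterocytes *Mt2* was 26.4-fold higher in the *Mt1*-rich cells of the duodenum (0.620 against 0.0235), 27.5-fold in the jejunum (0.884 against 0.0322) and 25.8-fold in the ileum (2.00 against 0.0777). In enterocytes it was 25.3-fold, 10.5-fold and 34.1-fold higher. All 126 early enterocytes with an *Mt2* UMI had an *Mt1* UMI too, while *Mt1* was found in 79.3% to 88.3% of all early enterocytes. In enterocytes, 86.7%, 75% and 83.3% of the cells with *Mt2* had *Mt1*, against 51.6%, 22.8% and 19.6% of all enterocytes. Cells with *Mt2* were not matched to the others for depth. Their median UMIs in enterocytes were 14682.5, 11650.5 and 8429.5, against 12125, 12074 and 6368 of all enterocytes. In early enterocytes these medians were 25777, 26842 and 29710, against 22208.5, 28396 and 23920. The part of depth was not tested.

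For *Slc30a1*, the other known MTF1 target named above, the ratios lay closer to 1. In early enterocytes the ratio was 0.818 (duodenum), 0.798 (jejunum) and 1.21 (ileum), and the intervals overlapped in each library. In enterocytes the ratio of *Slc30a1* was 1.33, 1.71 and 1.44, and that of *Slc39a5* 1.32, 1.41 and 2.00, with intervals that did not overlap in any library. *Slc39a4* lay between 0.479, in jejunal early enterocytes, and 1.33, in duodenal enterocytes. The *Mt1*-rich cells were not matched to the others for place along the villus or for depth. Among enterocytes they held a median of 13578, 13639 and 4810 UMIs, against 11909.5, 11979 and 6499 in the other cells.

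**Figure D5:**
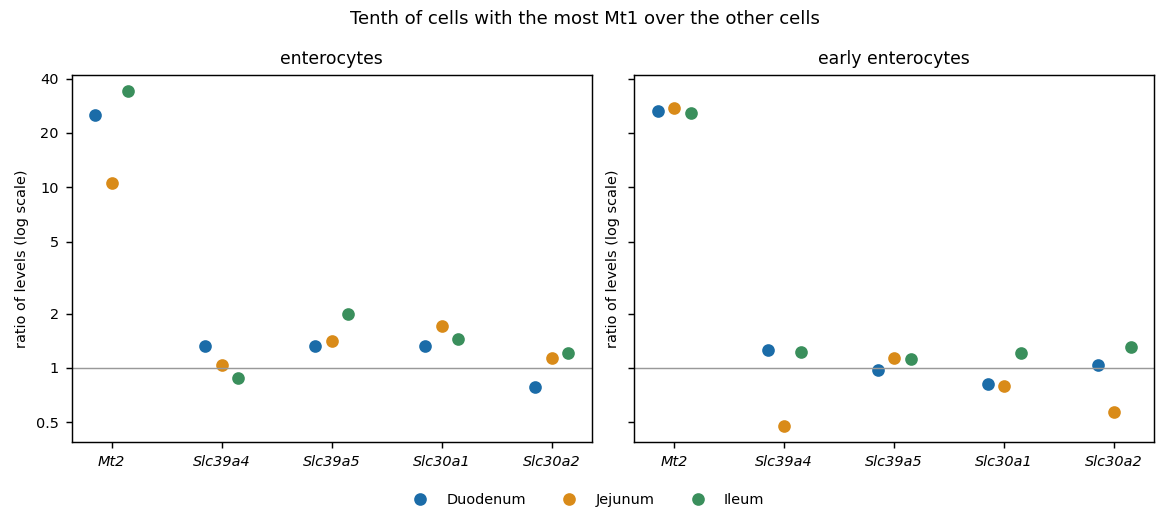
Ratio of the level in the tenth of cells with the largest share of *Mt1* UMIs to that in the other cells of the same class and library (vertical axis, log scale), for the other 5 zinc genes in enterocytes and early enterocytes. Points are the 3 libraries. *Mt2* lies between 10.5 and 34.1, and the other 4 genes lie between 0.479 and 2.00.

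Over 29 sums of cells by class and library, the genes whose log2 levels were most like each zinc gene were sought among 12969 genes. The sums share libraries and differ in depth. For *Slc39a4* these were *Muc3* (r = 0.91), *Trim30d* (0.89) and *Abcg5* (0.89), and for *Slc39a5* *Ccl25* (r = 0.93), *Nlrp6* (0.93) and *Otc* (0.92), of which *Ccl25* and *Nlrp6* also served as markers of early enterocytes. *Slc30a1* was most like *Tmem106a* (r = 0.81), *Clptm1* and *Lpcat3* (0.80 each), and *Slc30a2* most like *Nhsl1* (r = 0.81), *Pbld2* (0.79) and *Guca2b* (0.77). For *Mt1* these were *Gm17025* (r = 0.85), *Esd* (0.81) and *Gcsh* (0.80), and for *Mt2* *Cyp4f40* and *Adk* (0.71 each) and *Mt1* itself (0.68).

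Of 25 further genes of zinc handling, 19 had enough UMIs for the comparison of classes, and no UMI of *Slc39a12* was found. In early enterocytes 3 were higher and 5 lower than in enterocytes, a share of 19 near the 45.0% of all genes. *Slc39a7*, which releases zinc from the endoplasmic reticulum, was higher by 1.11 ± 0.20 on the log2 scale (adjusted p = 5.71e-05, edgeR), and *Slc39a11* (0.88 ± 0.22) and *Slc39a13* (1.34 ± 0.53) were higher as well. *Slc39a9* (-1.47 ± 0.21), *Slc30a10* (-1.51 ± 0.29), which exports manganese, *Gpr39* (-1.16 ± 0.33), a receptor for extracellular zinc, *Slc30a4* (-0.88 ± 0.22) and *Slc30a9* (-0.50 ± 0.19) were lower. Among the importers, tuft cells were higher in *Slc39a13* by 5.54 ± 0.53 (adjusted p = 4.99e-09, edgeR) with levels of 0.118, 0.174 and 0.239, in *Slc39a10* by 3.9 ± 0.53 and in *Slc39a11* by 0.90 ± 0.26. Goblet cells were higher in *Slc39a8* by 3.59 ± 0.44, *Slc39a13* by 2.56 ± 0.59, *Slc39a11* by 1.81 ± 0.22 and *Slc39a7* by 1.74 ± 0.20. EECs were higher in *Slc39a6* by 4.56 ± 0.55, *Slc39a10* by 3.74 ± 0.56, *Slc39a8* by 3.56 ± 0.49, *Slc39a13* by 3.51 ± 0.69 and *Slc39a7* by 0.88 ± 0.23. T cells were higher in *Slc39a6* by 4.89 ± 0.53, *Slc39a13* by 4.65 ± 0.54 and *Slc39a10* by 3.20 ± 0.51. Some of these changes rest on few UMIs. *Slc39a13* had 10 UMIs in EECs, 15 in goblet cells and 31 in enterocytes, and *Slc39a10* had 21 in EECs and 58 in enterocytes. Other importers were lower. *Slc39a1*, *Slc39a9* and *Slc39a14* changed by -1.27, -2.30 and -1.59 in tuft cells, by -1.37, -2.67 and -2.10 in EECs, and by -2.10, -2.80 and -2.68 in T cells.

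The counts of further genes that were higher and lower were, of 19 tested, 5 and 11 in ISC/proliferating cells (67.3% of all genes passed there), 5 and 8 in goblet cells (42.7%), 3 and 10 in tuft cells (50.8%), 6 and 10 in EECs (56.9%), 4 and 12 in T cells (66.6%), and 4 and 9 in B cells (62.5%). In Paneth cells 20 were tested, with 6 higher and 4 lower (28.1%). Between villus tip and bottom, *Slc39a9* (1.54 ± 0.20) and *Gpr39* (1.77 ± 0.27) were higher at the tip, *Slc30a5* (-1.11 ± 0.23) was lower, and 11 of 14 did not pass, where 48.7% of all genes passed. The median log2 fold change of the further genes was -0.46 in early enterocytes and 0.06 between tip and bottom.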

How the data were processed

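Single-cell RNA was measured in 3 libraries, 1 each from duodenum, jejunum and ileum. The authors deposited UMI counts per gene and cell, made with Cell Ranger 3.0.2 on GRCm38, per the labels. Matrices were used as deposited, and the limits were 800 and 50000 UMIs, 200 and 6000 genes, and 40% for the mitochondrial share, which 5129 barcodes of the duodenum exceeded. Cells were integrated and clustered with Seurat 5.3.0 (2000 variable genes without the 31 zinc genes, 30 components, resolution 0.8) and clusters were named from marker lists, so that every class name means resembling that type. Scrublet called 0, 0 and 146 cells doublets (duodenum, jejunum, ileum), and none was removed. The zinc genes, gene lists and marker lists were chosen with earlier results of these data known.

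UMIs were summed per library and class with at least 10 cells (5 for Paneth cells, in a fit of their own), and classes were tested with edgeR 4.0.16 (quasi-likelihood test, TMM, library as a block, Benjamini-Hochberg adjustment over all genes tested, threshold 0.05). Fits held 27 sums with 16 residual degrees of freedom, 32 with 19 for Paneth cells, and 6 with 2 for the villus. The tests were checked on simulated counts, where most genes changed by 1 on the log2 scale were missed in every comparison. A gene that did not pass is therefore not shown to be unchanged. Between segments there was no test. Likeness was Pearson's r of log2 levels (pseudocount 0.1) over genes with at least 100 UMIs. Intervals cover counting error only. The genes named were the 6 zinc genes, the 3 genes most like each of them, and examples of the further zinc genes past the test. Positions are from GENCODE M21, in which 99.62% of the genes listed were found, and promoter sequences from RefSeq, which matched 5 of the 6 genes (*Slc39a4* was not in that table). Alternatives were other scalings, filters, clusterings, class sums, villus bins, DESeq2 1.42.0 and leaving out each library.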

Additional observations from a re-analysis of the deposited data

Results flagged for a closer look

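*Mt1* in EECs moved in opposite directions against enterocytes of the same library. In the ileum it was higher in EECs by 1.59 on the log2 scale (1.90 against 0.631 UMIs per 10000 UMIs), and in the duodenum it differed by -3.14 (0.190 against 1.68). With 1 library per segment this difference was not tested.

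Cells that stayed unnamed also held zinc genes above the level of enterocytes. In cluster 17.1, with 60 cells led by *Gp2*, *Dcn* and *Ccl20*, *Mt1* stood at 5.40, compared to 0.934 in enterocytes, and *Mt2* at 0.795, compared to 0.0192. Early enterocytes held *Mt1* at 3.21 and *Mt2* at 0.165. In cluster 5, with 979 cells led by the pancreatic enzyme genes *Ctrb1* and *Prss2* and a median of 4680 UMIs, *Slc39a5* stood at 2.31, compared to 0.642, and *Slc30a1* at 0.527, compared to 0.264. The marker list that cluster 5 matched best was that of early enterocytes, which held *Slc39a5* at 1.84 and *Slc30a1* at 0.395. Of the cells in cluster 5, 672 came from the ileum, where early enterocytes held 2.20 and 0.555.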

How the results depend on the processing

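Of the log2 fold changes between classes and along the villus computed under alternatives, 885 kept their direction and their side of the threshold, 28 lost their call, 14 gained one and 23 changed sign. Of those 23, *Slc39a5* in ISC/proliferating cells without TMM passed (0.49, adjusted p = 0.0387, edgeR), and the other 22 had no call in either setting. Without TMM these were *Slc39a4* (-0.23) and *Slc30a2* (-0.42) along the villus, *Mt1* in EECs (0.052), *Slc30a2* in Paneth cells (-0.26) and *Mt2* in T cells (0.66). *Slc30a2* along the villus was -0.000887 with at most 20% mitochondrial UMIs and -0.019 between the outermost 10% of the score. *Mt2* was 0.50 in B cells and 0.61 in Paneth cells, where it had 0 UMIs, with DESeq2, and in T cells 0.010 (RLE factors), 0.11 (at most 20% mitochondrial UMIs), 0.041 (no library block), 0.069 (resolution 0.4), 0.11 (resolution 1.2), 0.032 (without doublets) and 0.17 (without integration). With 1 library left out, *Slc30a2* ran from -0.18 to 0.35 along the villus and from -0.018 to 0.37 in Paneth cells, *Mt1* in EECs from -2.60 to 0.19, and *Mt2* from -0.43 to 2.11 in EECs, from -2.0 to 1.81 in B cells and from -0.67 to 0.16 in T cells. The number of zinc genes called fell from 5 to 3 in B cells without the ileum, from 3 to 1 in Paneth cells without the ileum, from 5 to 3 in tuft cells without TMM, and from 3 to 1 between villus tip and bottom without the library block. The causes were not tested. When each library was left out in turn, 3 to 5 zinc genes were called in B cells and in ISC/proliferating cells, 4 to 5 in EECs, early enterocytes and tuft cells, 4 in goblet cells, 5 in T cells, 1 to 3 in Paneth cells and 3 along the villus. Among all genes called, higher ones made up 34.0% to 49.4% over the comparisons, 19.7% to 76.8% without TMM and 43.6% to 60.5% with RLE factors, and leaving TMM out moved the median of all genes by -0.56 to 0.83 (log2). The count over all genes dropped from 7122 to 4300 in B cells and from 3238 to 1793 in Paneth cells without the ileum, from 5133 to 3037 in early enterocytes, from 4868 to 3184 in goblet cells and from 4746 to 2685 along the villus without the jejunum, and to 2579 along the villus without the library block and 1709 in Paneth cells when only the 2 classes were fitted. Paneth sums of at least 10 or 20 cells were not run, since only 1 library reached 10 cells and none 20. Classes were compared within libraries by the library block, which was left out only in the alternative named.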

Other observations

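Barcodes with more than 40% mitochondrial UMIs, which the filters removed, numbered 5129 (duodenum), 3689 (jejunum) and 1291 (ileum). Per 10000 UMIs of nuclear genes, these barcodes held *Slc39a5* at 1.15, 1.98 and 2.97 in that order, compared to 0.844, 1.13 and 0.973 in all kept cells. *Mt1* stood at 1.76, 0.686 and 1.73, compared to 2.49, 0.964 and 1.43, and *Slc39a4* at 3.01, 2.49 and 3.05, compared to 2.98, 2.20 and 2.50. All kept cells include immune and secretory cells, and the removed barcodes were not sorted into classes. On the same scale, kept enterocytes alone held *Slc39a5* at 0.719, 0.966 and 0.823. They held *Mt1* at 2.31, 0.644 and 0.731, and *Slc39a4* at 3.81, 2.67 and 4.26. The zinc-binding transporter gene *Tmem163* was found in EECs at 0.0507, 0.0681 and 0.566 in duodenum, jejunum and ileum, with 50 UMIs in all and 5 UMIs among all enterocytes, and was higher in EECs by 7.43 ± 0.72 on the log2 scale (adjusted p = 1.08e-08, edgeR). It was also higher in B cells, by 7.04 ± 0.78 (49 UMIs, adjusted p = 5.19e-08, edgeR), in T cells, by 3.48 ± 0.85 (12 UMIs), and in ISC/proliferating cells, by 2.80 ± 1.13 (3 UMIs).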
